A study of Mus musculus with 18 samples.

Results

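The genes of glucose uptake, glycolysis, lactate production and pyruvate entry into the mitochondrion were described in mouse embryos at embryonic day 9. Rows of the count table were taken whose Ensembl gene identifier carries 1 of 34 listed gene symbols. All 34 were found, among 53465 gene identifiers in the table. Their roles were glucose transport (2 genes), the preparatory phase of glycolysis (9), the enzymes that set fructose 2,6-bisphosphate (4), the payoff phase (9), lactate formation and export (4) and the pyruvate dehydrogenase gate (6). The list was not chosen by measured values, but it was proposed with results of these data known.

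RNA from 9 embryos with 20 to 24 somites was read in 18 poly(A) libraries. Of these embryos, 5 were controls and 4 were double mutants (DKO) for Meis1 and Meis2, a pair of homeodomain transcription factor genes, with the deletion made by Delta1Cre. Delta1 (Dll1) is a Notch ligand gene of the presomitic and early somite mesoderm, and cells outside that lineage would keep both Meis genes. The labels give no further genotype, so it is not known here whether the controls carried Cre or conditional alleles. Each embryo gave a posterior piece, made of the axial bud and the 10 to 12 most recent somites, and an anterior piece with the remaining older somites, without the head. The aim stated for the series is to find Meis target genes in anterior-posterior patterning of the skeleton, and the separation of the pieces was meant to tell early patterning from later somite differentiation.

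In glycolysis, hexokinase traps glucose that entered through transporters, phosphofructokinase commits it, aldolase splits it, and the payoff enzymes from Gapdh to pyruvate kinase return ATP and NADH. Lactate dehydrogenase turns pyruvate into lactate, which monocarboxylate transporters export with a proton, while pyruvate dehydrogenase sends pyruvate to the mitochondrion unless its kinases switch it off. In amniote embryos the tail bud and presomitic mesoderm are known for a glycolytic activity that falls as cells move forward into older somites.

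Total expected counts, the estimated number of reads per library assigned to genes, ranged from 12.7 to 38.2 megacounts (M). Levels are given as CPM, counts per megacount of the library after TMM scaling (trimmed mean of M values), and changes as log2 fold changes (log2FC) with their standard error (SE). Calls are edgeR quasi-likelihood tests with a Benjamini-Hochberg adjusted p below 0.05 over all genes tested. Meis1 averaged 125 ± 8.64 CPM (SD, n = 5) in anterior controls and 102 ± 9.52 (n = 4) in anterior DKO pieces, and 84.5 ± 15.2 against 57.5 ± 11.8 in posterior pieces. Meis2 averaged 190 against 143 CPM anteriorly and 143 against 99.5 posteriorly. Neither gene passed the threshold (adjusted p from 0.0522 to 0.336). Which exons the deletion removes is not given in the sources used here, so whole-gene counts do not check the labels. All 9 axial bud markers, such as T and Cdx2, were called higher in the posterior piece of both genotypes (12.1% of all genes in controls and 8.76% in DKO embryos), with summed levels of 26.9 to 33.9 CPM in anterior and 356 to 662 CPM in posterior control libraries. In control embryo 1, which carries a female label, 4 Y-linked genes summed to 151 and 162 CPM and Xist was at 0.340 and 0.201 CPM, as in libraries labelled male, so results are also given without that embryo where the count changed.

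Promoter windows of members that were higher in the posterior piece are shown first, because the 4 lactate genes and Pfkl were higher posteriorly in control embryos (values below) and because many glycolytic genes are textbook targets of hypoxia-inducible factors, which bind a core of ACGTG or GCGTG. Of the 34 members, 33 matched the RefSeq table of windows (GRCm38.p6, 250 bases before to 50 after a gene start), with 52 windows in all. Slc2a3 had no entry. The lines below run 5′ to 3′ on the gene's strand, with ACGTG and GCGTG, or their reverse complements, in capitals. Overlapping matches merge, as in CACGTG, which holds ACGTG on both strands. These 5 genes were picked after their values were seen, and Ldha alone of them did not pass in DKO embryos. The Pfkl window is chr10:78009758-78010057 (minus strand), that of Ldhb chr6:142507908-142508207 (minus), the first of 2 for Ldha chr7:46845554-46845853 (plus), that of Slc16a1 chr3:104638414-104638713 (plus) and that of Slc16a3 chr11:120948817-120949116 (plus).
Pfkl: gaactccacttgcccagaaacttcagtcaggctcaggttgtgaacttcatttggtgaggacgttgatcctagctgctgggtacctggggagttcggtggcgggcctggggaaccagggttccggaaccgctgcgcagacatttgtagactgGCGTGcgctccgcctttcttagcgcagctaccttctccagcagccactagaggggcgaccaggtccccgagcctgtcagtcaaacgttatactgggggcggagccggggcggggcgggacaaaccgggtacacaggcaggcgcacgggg
Ldhb: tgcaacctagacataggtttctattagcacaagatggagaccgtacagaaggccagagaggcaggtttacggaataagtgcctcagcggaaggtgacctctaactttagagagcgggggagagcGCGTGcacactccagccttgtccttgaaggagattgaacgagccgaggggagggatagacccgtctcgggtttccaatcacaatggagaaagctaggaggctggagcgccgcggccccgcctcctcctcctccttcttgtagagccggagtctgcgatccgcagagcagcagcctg
Ldha: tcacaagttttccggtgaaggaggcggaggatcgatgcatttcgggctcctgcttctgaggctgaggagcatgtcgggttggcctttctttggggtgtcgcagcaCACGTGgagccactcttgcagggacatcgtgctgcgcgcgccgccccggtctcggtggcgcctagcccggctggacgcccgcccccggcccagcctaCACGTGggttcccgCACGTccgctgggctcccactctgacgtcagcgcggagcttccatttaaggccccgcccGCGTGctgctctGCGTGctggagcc
Slc16a1: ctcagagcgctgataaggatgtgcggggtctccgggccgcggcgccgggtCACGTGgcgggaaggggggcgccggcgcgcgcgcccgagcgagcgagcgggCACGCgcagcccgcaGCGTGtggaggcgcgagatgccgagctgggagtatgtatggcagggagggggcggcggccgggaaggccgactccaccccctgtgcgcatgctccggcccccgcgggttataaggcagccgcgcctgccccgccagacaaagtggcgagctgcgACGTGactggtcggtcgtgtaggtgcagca
Slc16a3: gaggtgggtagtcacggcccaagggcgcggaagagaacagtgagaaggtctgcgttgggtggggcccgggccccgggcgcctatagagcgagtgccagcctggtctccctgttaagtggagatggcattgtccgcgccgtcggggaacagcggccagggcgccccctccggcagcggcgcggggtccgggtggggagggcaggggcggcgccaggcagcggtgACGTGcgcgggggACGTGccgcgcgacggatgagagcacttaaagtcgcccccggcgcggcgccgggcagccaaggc

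The Ldha window shown held ACGTG 5 times and GCGTG 2 times, counting both strands, while the second Ldha window, chr7:46846832-46847131 (plus), held no ACGTG and 2 GCGTG. That of Slc16a1 held them 3 and 2 times, that of Slc16a3 held ACGTG 2 times and no GCGTG, and those of Pfkl and Ldhb each held 1 GCGTG and no ACGTG. Of other members called higher in control embryos, Hk2 held ACGTG 2 times, the first Aldoc window held 1 ACGTG and 2 GCGTG, and Eno2 held neither. Pgam2, which was lower, held neither as well. Members that did not rise also held the motifs, such as Pdha1 (GCGTG 4 times) and Gapdh (1 ACGTG and 2 GCGTG). Over all member windows, 22 of 52 held ACGTG and 28 of 52 held GCGTG, against 19.6% and 32.4% of all 32851 windows in the table. At least 1 of these motifs was in 38 of 52 member windows, against 43.8% of all windows. Counted per gene it was 28 of 33 members (84.8%) against 46.7% of 27025 genes, where members have more windows each (52 for 33, against 32851 for 27025). Member windows were also richer in G and C, with a median of 59.7% against 52.7% for all windows, and the part of base composition in the motif counts was not tested. CACGTG, the E-box bound by Myc family factors among others, was in 6 of 52 member windows and in 7.15% of all windows. A match in these letters is a description of the window, and nothing in the files measures binding there.

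Along the axis of control embryos, the largest rise from the anterior to the posterior piece was in Slc2a3, the high-affinity glucose transporter GLUT3. All 4 lactate genes rose too, as did Hk2, Pfkl, Aldoc and Eno2, while Pgam2, the muscle form of phosphoglycerate mutase, was lower in the posterior piece. Of 33 members tested, 9 were higher and 1 was lower (30.3%), against 25.4% of 15294 genes called in either direction, 12.1% higher and 13.3% lower. The median log2FC was 0.13 for the members and -0.01 for all genes tested, and 24 of the 33 were above 0, against 48.7% of all genes. Without control embryo 4 the members' median was 0.08. Pdk4 was too low to be tested. In bulk pieces, fewer cells of a type and less RNA per cell cannot be told apart.

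The embryo was a strong source of shared variation, since both pieces of each embryo deviated together, and with the embryo as a block 18 of 33 control members passed (15 higher and 3 lower), against 33.6% of all genes. The added members were Pdk1, Pfkp, Tpi1, Aldoa, Pkm and Pgk1 among the higher and Pfkfb2 and Pdha1 among the lower. DESeq2 called 12 of 33, with Tpi1 and Pgk1 added, against 27.2% of all genes. Leaving out single control embryos gave 7 to 9 calls of 33 members, against 19.0% to 22.2% of all genes. Without embryo 1 there were 7 (6 higher and 1 lower), against 19.0% of all genes, and Eno2, Hk2 and Ldha were no longer called.

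**Figure D1:**
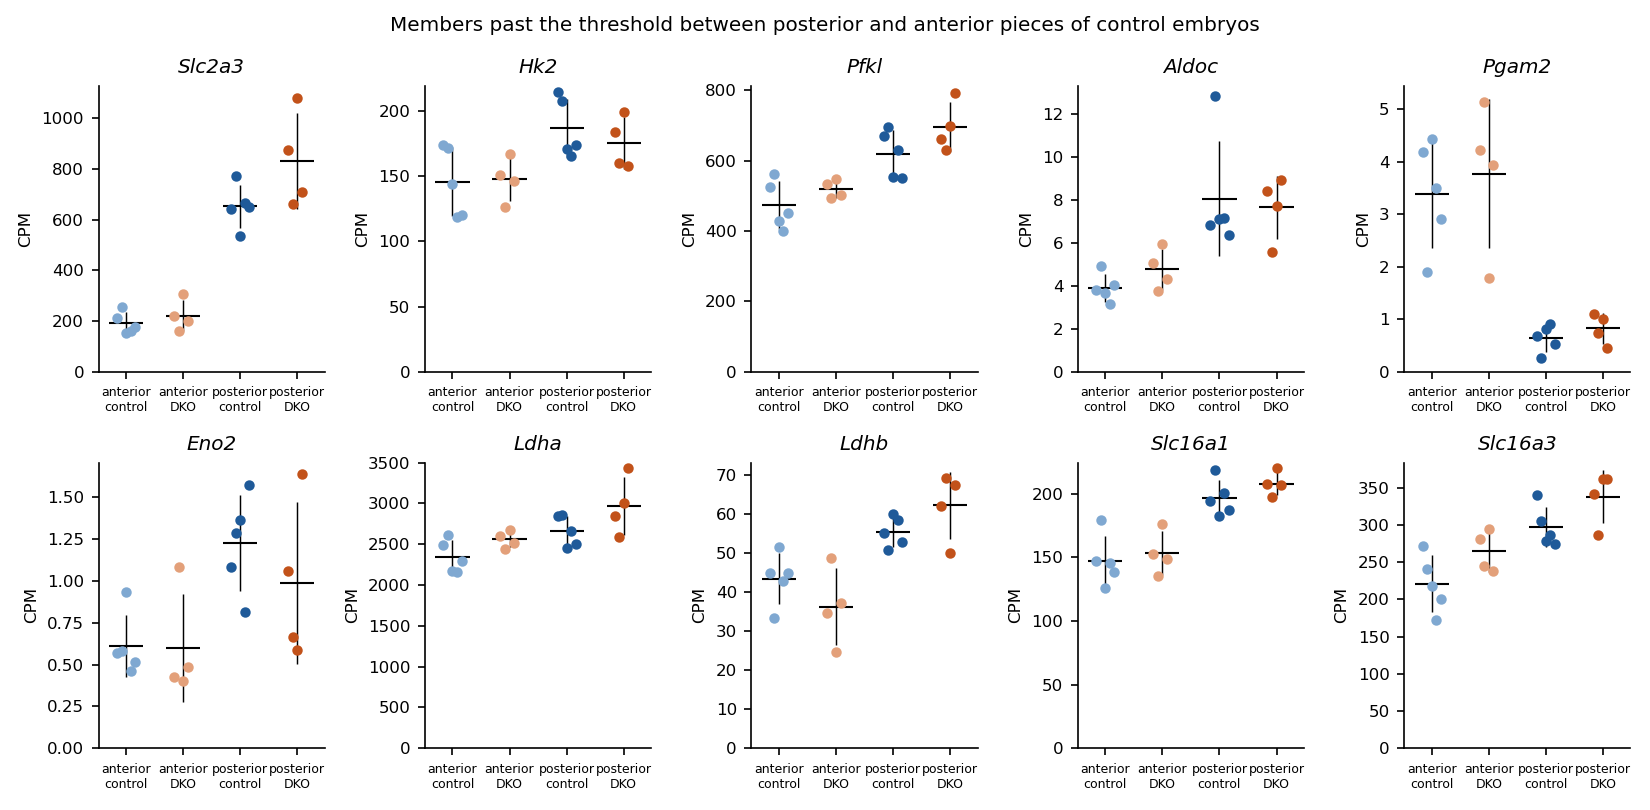
Level of the 10 members called between posterior and anterior pieces of control embryos, in CPM on axes that start at 0. Each point is 1 library, horizontal bars are group means and vertical bars are SD (n = 5 control, n = 4 DKO); Slc2a3 lies at 155 to 257 CPM in anterior control and 535 to 775 CPM in posterior control libraries.

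Glucose transport held the member with the largest rise. Slc2a3 (ENSMUSG00000003153, GRCm38 chromosome 6, 122727809 to 122801640, minus strand) stood at 212, 257, 155, 161 and 176 CPM in the anterior pieces of control embryos 1 to 5 and at 642, 775, 535, 667 and 649 CPM in their posterior pieces. Every posterior library was above every anterior one. The rise was 3.40-fold (log2FC 1.77, SE 0.139, edgeR adjusted p = 1.83e-06). Slc2a1 (GLUT1, the broadly expressed transporter, chromosome 4, 119108711 to 119137983) was at 666, 708, 511, 468 and 540 CPM anteriorly and at 684, 660, 564, 538 and 537 CPM posteriorly. Its groups lay on each other (log2FC 0.04, 95% interval -0.18 to 0.27), and control embryos 1 and 2 were high in both pieces. Per kilobase of merged exon, Slc2a1 remained the more abundant of the pair, at 165 ± 29.4 CPM per kb anteriorly and 170 ± 20.0 posteriorly, against 26.5 ± 5.87 and 90.2 ± 11.8 for Slc2a3 (SD, n = 5). Slc2a3 thus made up 13.8% ± 0.83 of the summed length-scaled level of these transporters in anterior control pieces and 34.7% ± 3.07 in posterior ones.

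In the preparatory phase, 3 of 9 genes rose in control embryos, against 12.1% of all genes called higher, each at a step with several isoenzymes. Hk2, the hexokinase of muscle and of fast-growing tissue, was at 174, 172, 144, 119 and 121 CPM anteriorly and 214, 208, 171, 166 and 174 CPM posteriorly. The groups overlapped, but each embryo was higher posteriorly (log2FC 0.36, SE 0.119, edgeR adjusted p = 0.0444). Without the block, the call was lost when any 1 control embryo was left out. With the embryo as a block the edgeR adjusted p of Hk2 was 0.000145. Pfkl, the liver-type phosphofructokinase, was at 525, 561, 429, 400 and 452 CPM anteriorly and 671, 697, 554, 630 and 550 CPM posteriorly. It rose by 0.39 (SE 0.0984, adjusted p = 0.0111), with the lowest posterior library only just under the highest anterior one. Without control embryo 4 its adjusted p was 0.0560, and with the embryo as a block it was 0.000170. Aldoc, the brain-type aldolase, was at 3.80, 4.92, 3.66, 3.16 and 4.02 CPM anteriorly and 6.83, 12.8, 7.11, 7.14 and 6.35 CPM posteriorly. It rose 2.05-fold (log2FC 1.04, SE 0.206, adjusted p = 0.00248) with no overlap, and posterior control 2 stood apart from the rest. Aldoc remained under 1% of the aldolase level per length in both pieces (0.33% and 0.60%), because Aldoa was at 915 to 1183 CPM anteriorly and 1027 to 1322 CPM posteriorly.

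The other preparatory genes did not pass the edgeR threshold without the block in control embryos. With it the adjusted p was 0.0214 for Pfkp, 0.00351 for Tpi1 and 0.0286 for Aldoa. Pfkp, the platelet-type phosphofructokinase, was at 11.3, 11.3, 12.4, 8.91 and 12.3 CPM anteriorly and 12.9, 15.1, 13.2, 10.9 and 16 CPM posteriorly (log2FC 0.28, adjusted p = 0.126). The platelet isoform was thus higher posteriorly in each of the 5 embryos, within groups that overlapped. Pfkm, the muscle isoform, had a log2FC of -0.05, Gpi1 0.01, Hk1 0.12, Aldoa 0.18 and Tpi1 0.19. Per length, Pfkl was 81.0% ± 1.59 of the 3 phosphofructokinases in anterior control pieces and 85.1% ± 0.75 in posterior ones, while the share of Pfkm was 18.1% ± 1.57 and 13.9% ± 0.70.

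With edgeR and no block, none of the 4 Pfkfb genes, whose products make and remove the phosphofructokinase activator fructose 2,6-bisphosphate, passed the threshold in control embryos. Pfkfb2 was at 4.42, 5, 4.43, 3.51 and 6.48 CPM anteriorly and 3.09, 3.27, 3.53, 2.42 and 6.02 CPM posteriorly (log2FC -0.40, adjusted p = 0.269, or 0.0384 with the embryo as a block). Pfkfb4 was at 9.52, 10.4, 10.5, 11.7 and 11.6 CPM anteriorly and 8.99, 10.4, 9.33, 7.86 and 5.24 CPM posteriorly (log2FC -0.35, adjusted p = 0.123, with a log2FC of -0.20 without control embryo 5). Both were lower or level in the posterior piece of each control embryo, with embryo 5 high for Pfkfb2 in both pieces and the lowest posterior library for Pfkfb4. Pfkfb3, the most abundant of the 4, was at 35.3 to 69.8 CPM anteriorly and 43.2 to 70.9 CPM posteriorly, and Pfkfb1 had a log2FC of 0.16.

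The payoff phase held many of the most abundant members, and the changes of these were small. Per length, Pkm (770 ± 57.2 CPM per kb in anterior control pieces), Ldha (709 ± 60.6), Pgam1 (666 ± 42.2) and Pgk1 (595 ± 60.1) led the list, and the spreads of neighbours in this order overlapped. Eno1 was at 360 ± 40.2, without the counts on its near-identical copies (given below). Those copies held 30.4% to 55.5% of the joint counts in these libraries, so its rank depends on them. Gapdh had a log2FC of -0.01 (95% interval -0.12 to 0.10), Pgam1 of 0.09, Pgk1 of 0.19 and Pkm of 0.13, none past the edgeR threshold without the block. With the embryo as a block Pgk1 (adjusted p = 0.00133) and Pkm (0.0377) passed. Pkm was at 3602 to 4199 CPM anteriorly and 3694 to 4592 CPM posteriorly, and was higher posteriorly within each of the 9 embryos, by 1.02 to 1.29 times. Bpgm, which makes 2,3-bisphosphoglycerate in erythrocytes, had a log2FC of -0.11. Summed levels of 10 erythroid markers, led by the globins, ran from 1073 to 5242 CPM in anterior and from 1530 to 2532 CPM in posterior control libraries, and 0 of 10 passed the edgeR test between pieces, against 25.4% of all genes. All 10 had a log2FC below 0 (median -0.67), and 2 had an unadjusted p below 0.05, against 35.5% of all genes. Their part in the Bpgm level was not tested.

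Pgam2 and Eno2, payoff isoenzymes known from muscle and neurons, were low and moved in opposite directions, while the muscle enolase Eno3 was not low and did not pass the threshold. Pgam2 was at 4.19, 1.90, 4.43, 3.51 and 2.92 CPM in anterior control pieces and at 0.686, 0.258, 0.807, 0.919 and 0.524 CPM in posterior ones. No posterior library reached the lowest anterior one (5.16-fold lower, log2FC -2.37, SE 0.326, adjusted p = 0.000164). All 8 muscle markers that were tested were lower posteriorly as well, against 13.3% of all genes, with summed levels of 74.4 to 132 CPM anteriorly and 7.05 to 14.9 CPM posteriorly. Eno2, the neuron-type enolase, was at 0.567, 0.581, 0.933, 0.460 and 0.518 CPM anteriorly and 1.08, 1.29, 1.36, 0.817 and 1.57 CPM posteriorly. It rose (log2FC 1.0, SE 0.269, adjusted p = 0.0158) at the lowest level of any member called higher, with 1 posterior library under the highest anterior one. Its call was lost without control embryo 1, 2 or 5, and the edgeR adjusted p with the embryo as a block was 0.0150. Neuron markers went the other way, with 7 of 8 lower, against 13.3% of all genes, and 1, Isl1, higher posteriorly, and summed levels of 139 to 314 CPM anteriorly and 53.9 to 75.1 CPM posteriorly. Eno3 was at 50.9 to 60.7 CPM anteriorly and 52.8 to 65.3 CPM posteriorly (log2FC 0.08).

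All 4 lactate genes were higher in the posterior piece of control embryos, against 12.1% of all genes called higher, and in no other role did each tested member pass the edgeR threshold there. Slc16a1 (MCT1) was at 147, 180, 126, 146 and 139 CPM anteriorly and 194, 218, 182, 200 and 188 CPM posteriorly. The groups did not overlap (log2FC 0.41, SE 0.0840, adjusted p = 0.00280). Slc16a3 (MCT4), the exporter of highly glycolytic cells, was at 272, 240, 219, 172 and 201 CPM anteriorly and 340, 306, 279, 287 and 275 CPM posteriorly. It was 1.35-fold higher with no overlap (log2FC 0.43, SE 0.108, adjusted p = 0.0105). For groups that do not overlap in this direction the background was 9.44% of genes, and 4 members had such groups, namely Slc2a3, Aldoc and these transporters. Pgam2 was the member that was lower with no overlap, against 10.7% of genes in that direction.

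Among the dehydrogenases, Ldha, the subunit favoured where pyruvate is reduced, was at 2489, 2615, 2173, 2156 and 2296 CPM anteriorly and 2844, 2853, 2451, 2662 and 2505 CPM posteriorly. Its change was small (log2FC 0.18, SE 0.0619, adjusted p = 0.0466), the groups overlapped, and the call was lost under 7 of 16 alternatives. The edgeR adjusted p of Ldha with the embryo as a block was 0.00234. Ldhb, the heart-type subunit, was at 44.9, 33.3, 51.4, 42.8 and 44.8 CPM anteriorly and 55.2, 50.7, 59.9, 58.5 and 52.7 CPM posteriorly. It rose by 0.36 (SE 0.0957, adjusted p = 0.0155), with 1 posterior library under the highest anterior one. The call was lost without control embryo 4 (adjusted p = 0.0772) and in one fit of all 18 libraries (0.0743). For Ldhb the edgeR adjusted p with the embryo as a block was 0.000934. Ldha kept most of the length-scaled level of the pair, at 96.2% ± 0.77 and 95.8% ± 0.49.

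At the pyruvate gate, 0 of 5 tested genes passed the threshold with edgeR in control embryos, and 2 had an unadjusted p below 0.05, against 35.5% of all genes. Pdk1, a kinase that inhibits pyruvate dehydrogenase, was at 68.7 to 104 CPM anteriorly and 92.3 to 117 CPM posteriorly (log2FC 0.24, adjusted p = 0.124). Pdha1, the catalytic subunit of pyruvate dehydrogenase, was at 163 to 185 CPM anteriorly and 154 to 170 CPM posteriorly (log2FC -0.11, adjusted p = 0.116). Both calls appeared with the embryo as a block, with adjusted p = 0.00177 for Pdk1 and 0.0191 for Pdha1. Pdk2, Pdk3 and Pdhb lay between -0.09 and 0.07, and Pdk4 was at 0.388 to 1.25 CPM anteriorly and 0.0430 to 0.524 CPM posteriorly.

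The same contrast in DKO embryos gave 8 higher and 1 lower of 33 members tested (27.3%), against 18.5% of 15777 genes called in either direction, 8.76% higher and 9.7% lower. The median log2FC was 0.20 for the members and 0.01 for all genes, and 26 of the 33 were above 0, against 52.1% of all genes. Without DKO embryo 4 the members' median was 0.09. Slc2a3, Pfkl, Slc16a1 and Pgam2 were called with any 1 DKO embryo left out. Without DKO embryo 1 or 4 these were the sole 4 calls of 33, and Aldoc, Ldhb, Pfkfb1, Pfkp and Slc16a3 were lost. Of all genes, 11.1% were called without DKO embryo 1 and 16.2% without DKO embryo 4, so the members were near or below that share. With the embryo as a block there were again 9 calls, against 19.0% of all genes, with Hk2 gained and Pfkfb1 lost.

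**Figure D2:**
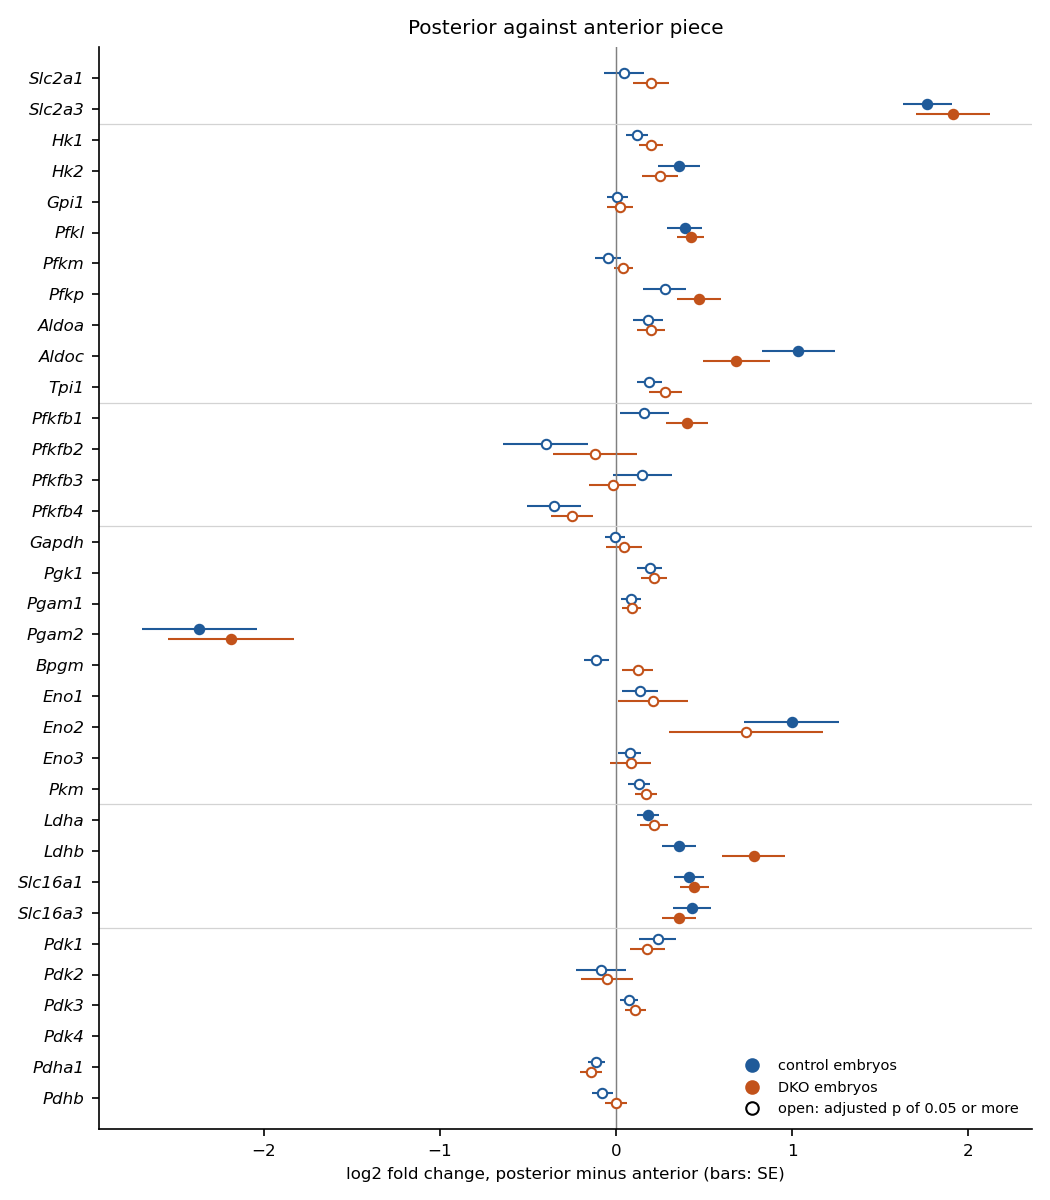
Log2 fold change of each tested member from the anterior to the posterior piece, with SE, in control and DKO embryos; filled symbols are members past the threshold. Slc2a3 lies farthest to the right in both genotypes (1.77 and 1.91) and Pgam2 farthest to the left (-2.37 and -2.18).

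Slc2a3 was at 220, 159, 307 and 201 CPM in the anterior pieces of DKO embryos 1 to 4 and at 874, 663, 1082 and 709 CPM in the posterior ones. It rose 3.76-fold (log2FC 1.91, SE 0.209, edgeR adjusted p = 0.000143), and DKO embryo 3 was highest in both pieces. Across all 9 embryos the ratio of posterior to anterior Slc2a3 ran from 3.02 to 4.16, with a median of 3.53. Its share of the length-scaled transporter pair was 13.6% ± 1.78 anteriorly and 34% ± 3.77 posteriorly in DKO embryos. Slc2a1 was at 712, 576, 778 and 624 CPM anteriorly and 864, 688, 797 and 734 CPM posteriorly (log2FC 0.20, adjusted p = 0.235).

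Pfkl was at 535, 493, 549 and 503 CPM in anterior DKO pieces and 661, 630, 699 and 793 CPM in posterior ones. The groups did not overlap (log2FC 0.42, SE 0.0772, adjusted p = 0.00328). Pfkp was at 11.6, 12.2, 11.2 and 10.8 CPM anteriorly and 18.7, 13, 17.2 and 14.5 CPM posteriorly (log2FC 0.47, SE 0.125, adjusted p = 0.0248). It too had no overlap, with DKO embryos 1 and 3 highest posteriorly. Aldoc was at 5.06, 3.76, 5.95 and 4.32 CPM anteriorly and 8.40, 5.58, 7.69 and 8.91 CPM posteriorly (log2FC 0.68, SE 0.189, adjusted p = 0.0298). Here the posterior value of DKO embryo 2 lay under the anterior value of embryo 3. Hk2 was at 151, 126, 167 and 147 CPM anteriorly and 184, 160, 200 and 158 CPM posteriorly, and did not pass (log2FC 0.25, adjusted p = 0.128, or 0.0261 with the embryo as a block). Pfkfb1 was at 5.69 to 6.76 CPM anteriorly and 6.98 to 8.76 CPM posteriorly (log2FC 0.40, adjusted p = 0.0416), and its call was lost under 7 of 15 alternatives. Among the remaining Pfkfb genes in DKO embryos, Pfkfb2 had a log2FC of -0.12, Pfkfb3 of -0.02 and Pfkfb4 of -0.25.

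Ldhb was at 34.5, 48.8, 24.6 and 37.1 CPM in anterior DKO pieces and 61.9, 69.2, 50.1 and 67.5 CPM in posterior ones. It rose 1.72-fold with no overlap (log2FC 0.78, SE 0.179, adjusted p = 0.0119), and DKO embryo 3 was lowest and embryo 2 highest in both pieces. Slc16a1 was at 153, 135, 176 and 149 CPM anteriorly and 208, 197, 220 and 207 CPM posteriorly (log2FC 0.44, SE 0.0814, adjusted p = 0.00337), again with no overlap. Slc16a3 was at 281, 245, 294 and 239 CPM anteriorly and 342, 286, 362 and 362 CPM posteriorly (log2FC 0.36, SE 0.0970, adjusted p = 0.0278). Its posterior library of embryo 2 fell below the highest anterior library. Ldha was at 2606, 2445, 2678 and 2516 CPM anteriorly and 2846, 2582, 3009 and 3436 CPM posteriorly (log2FC 0.22, adjusted p = 0.0883, with a log2FC of 0.12 without DKO embryo 4). In DKO embryos, 8 members were higher with no overlap, among them Hk1 and Tpi1, which did not pass the adjusted threshold, against 10.9% of genes in that direction. Pgam2 was again lower with no overlap, against 12.7% of genes.

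Pgam2 was at 4.23, 5.15, 1.79 and 3.94 CPM in anterior DKO pieces and 1.10, 0.733, 1.01 and 0.461 CPM in posterior ones (log2FC -2.18, SE 0.358, adjusted p = 0.00176). All 8 tested muscle markers were lower posteriorly here too, against 9.7% of all genes, with sums of 87.3 to 191 CPM anteriorly and 8.80 to 22.6 CPM posteriorly. Eno2 was at 0.429, 1.08, 0.404 and 0.484 CPM anteriorly and 1.06, 0.663, 0.587 and 1.64 CPM posteriorly, and did not pass (log2FC 0.74, adjusted p = 0.313). Its log2FC was 1.31 without DKO embryo 2 and 0.30 without DKO embryo 4. Anterior DKO 2 stood above the other 3, and in that embryo the posterior piece was the lower one. The 10 erythroid markers all had a log2FC above 0 in DKO embryos (median 0.48), with 7 of 10 at an unadjusted p below 0.05, against 29.4% of all genes, and 0 past the edgeR threshold. Their sums were 1361 to 2288 CPM anteriorly and 1853 to 3828 CPM posteriorly, and their part in the DKO values along the axis was not tested. The remaining payoff genes had log2FC values between 0.05 (Gapdh) and 0.21 (Pgk1 and Eno1), and 0 of 5 genes tested at the pyruvate gate passed with edgeR, with 1 at an unadjusted p below 0.05, against 29.4% of all genes.

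Compared within embryos, 14 of 34 members were higher in the posterior piece of all 9 embryos, against 11% of 16428 genes. These were Slc2a3, Hk2, Pfkl, Pfkp, Aldoc, Tpi1, Pgk1, Eno1, Pkm, Ldha, Ldhb, Slc16a1, Slc16a3 and Pdk3. Pgam2 and Pdha1 were lower in all 9, against 13.1% of genes. The median posterior to anterior ratio was 1.36 for Slc16a1, 1.42 for Ldhb, 1.28 for Pfkl, 1.27 for Slc16a3, 1.22 for Hk2 and 1.12 for Ldha, and that of Pdha1 was 0.930. The members together took 1.52% to 1.74% of the counts in anterior control libraries and 1.74% to 1.94% in posterior ones, and 1.65% to 1.89% and 1.82% to 2.27% in DKO libraries. Each embryo had the higher share in its posterior piece.

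The comparison of genotypes asked whether loss of Meis1 and Meis2 changed these genes. In the posterior pieces, 0 of 33 members passed the threshold with edgeR, against 0.0126% of 15936 genes, and 5 had an unadjusted p below 0.05, against 11% of all genes. The median log2FC was 0.10 for the members and 0.01 for all genes, with 25 of 33 above 0, against 52.4%. Among markers of other cell types, 4 of 5 gut endoderm markers were above 0 (median 0.29, sums 105 to 151 CPM in control and 140 to 163 CPM in DKO libraries). All 5 sclerotome markers (median -0.30, sums 138 to 187 and 77.1 to 151 CPM) and all 5 endothelium markers (median -0.22, sums 131 to 223 and 125 to 188 CPM) were below 0. With edgeR 0 of these passed, while 3, 2 and 0 had an unadjusted p below 0.05, against 11% of all genes. All 9 axial bud markers were above 0 (median 0.18, sums 356 to 662 and 407 to 705 CPM), with 1 at an unadjusted p below 0.05. Above 0 were also 6 of 8 neuron markers (median 0.22), 4 of 5 muscle markers (0.25) and 2 of 7 heart markers (-0.37). Of these, 2, 0 and 0 had an unadjusted p below 0.05, and none of these lists held an edgeR call. The part of these cell types in the members' values was not tested. DESeq2 called 1 member, Slc2a1, against 1.02% of all genes.

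**Figure D3:**
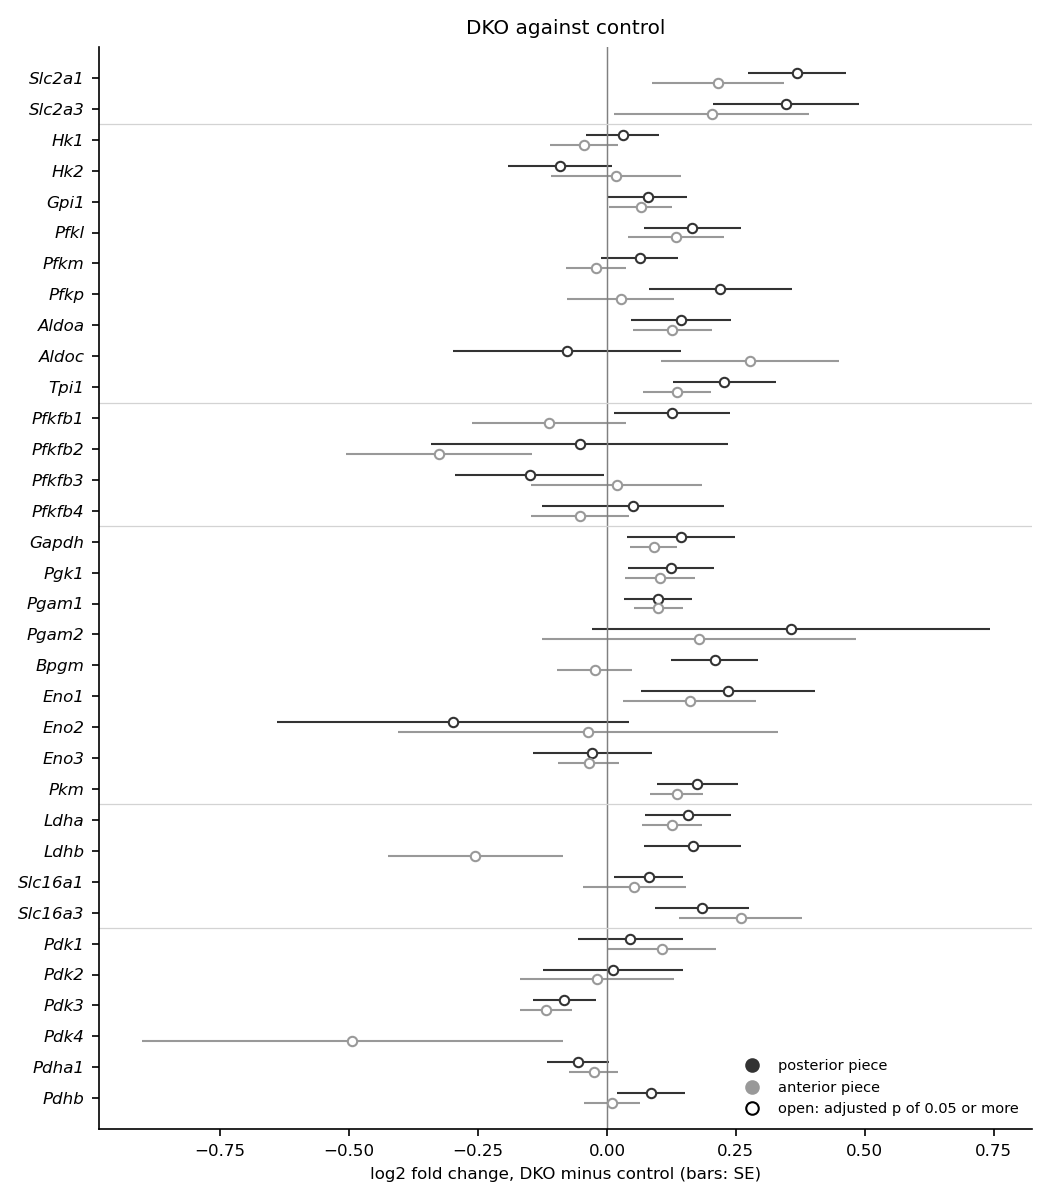
Log2 fold change of each tested member in DKO against control embryos, with SE, in the posterior and the anterior piece. All symbols are open because no member passed the threshold; the glucose transporters Slc2a1 and Slc2a3 lie at 0.37 and 0.35 in the posterior piece.

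Slc2a1 had the smallest adjusted p of the members. Its posterior levels of 684, 660, 564, 538 and 537 CPM in controls and 864, 688, 797 and 734 CPM in DKO embryos did not overlap, though only by the margin between 684 and 688, and the groups of 2.15% of all genes stood apart in this direction. The log2FC was 0.37 (SE 0.0953, 95% interval 0.18 to 0.56, edgeR adjusted p = 0.281), and with DESeq2 the adjusted p was 0.0324. Over the alternatives the adjusted p ran from 0.0324 to 0.535. Slc2a3 had a posterior log2FC of 0.35 (95% interval 0.07 to 0.62, adjusted p = 0.446) and overlapping groups, and its log2FC was 0.20 without DKO embryo 3. The others with an unadjusted p below 0.05 were Bpgm (0.21), Tpi1 (0.23) and Pkm (0.18), and without DKO embryo 4 the log2FC was 0.11 for Tpi1 and 0.10 for Pkm. Posterior DKO 4 had the highest level of Tpi1 (1276 CPM), Pkm (5393 CPM), Ldha (3436 CPM) and Gapdh (911 CPM) in any library, and its members together reached 2.27% of counts. Erythroid marker sums were 1530 to 2532 CPM in posterior control and 1853 to 3828 CPM in posterior DKO libraries, with all 10 markers above 0 (median log2FC 0.48), 7 at an unadjusted p below 0.05, against 11% of all genes, and 0 past the edgeR threshold. Their part in Slc2a1 and Bpgm was not tested.

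In the anterior pieces, 0 of 34 members passed with edgeR, against 0.0394% of 15238 genes, and 2 had an unadjusted p below 0.05, against 13% of all genes. DESeq2 also called 0, against 1.94% of all genes. The median log2FC was 0.04 against 0.00 for all genes, with 21 of 34 above 0, against 50% of all genes. That median moved with single embryos, to 0.10 without control embryo 1 and to 0.01 without control embryo 4. Slc2a1 had a log2FC of 0.22 (95% interval -0.03 to 0.46), Slc2a3 of 0.20 (-0.17 to 0.57, and 0.01 without DKO embryo 3), Slc16a3 of 0.26 (0.03 to 0.49) and Ldhb of -0.26 (-0.59 to 0.08). The unadjusted p was below 0.05 for Pkm (0.14) and Pdk3 (-0.12). All 10 erythroid markers were below 0 in this comparison (median -0.67, summed levels 1073 to 5242 CPM in control and 1361 to 2288 CPM in DKO pieces), with 0 at an unadjusted p below 0.05. Of 8 muscle markers tested, 7 were above 0 (median 0.61, sums 74.4 to 132 and 87.3 to 191 CPM), with 5 at an unadjusted p below 0.05, against 13% of all genes, and 0 past the edgeR threshold. As in the posterior pieces, all 5 sclerotome (median -0.24) and all 5 endothelium markers (-0.16) were below 0, and 4 of 5 gut endoderm markers were above 0 (0.32). Of these, 2, 1 and 2 had an unadjusted p below 0.05. Neuron (6 of 8), axial bud (3 of 5) and heart markers (4 of 6) were more often above 0 (medians 0.19, 0.17 and 0.15), with 0, 1 and 2 at an unadjusted p below 0.05. With edgeR 0 of these lists' genes passed. The part of these cell types in the anterior values was not tested. Gapdh, an abundant enzyme with a narrow spread, had a log2FC of 0.09 (0.00 to 0.18). The edgeR unadjusted p was 0.0711 for Gapdh and 0.0524 for Slc16a3, since the normal intervals are narrower than the test.

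Whether the rise along the axis differed between genotypes was tested as an interaction over all 18 libraries. None of 34 members passed with edgeR, against 0.0% of 16428 genes, and 0 members had an unadjusted p below 0.05, against 3.45% of all genes. DESeq2 called 0 as well, against 0.0609% of all genes. The difference was above 0 for 26 of 34 members, against 51.7% of all genes, and for 16 of 34 without DKO embryo 4. For Slc2a3 the difference of the log2FC values was 0.14 (SE 0.258, 95% interval -0.36 to 0.65). For Ldhb it was 0.42 (SE 0.209, interval 0.01 to 0.83, adjusted p = 0.999), and for Bpgm 0.23 (0.01 to 0.45). These normal intervals are narrower than the edgeR test, which gave an unadjusted p of 0.0580 for Ldhb and 0.0556 for Bpgm. The difference was above 0 for all 10 erythroid markers (median 1.11), of which 8 had an unadjusted p below 0.05, against 3.45% of all genes, and 0 passed with edgeR. Their part in the difference for Bpgm and other members was not tested. That fit leaves out the pairing of pieces within embryos. With the embryo as a block 0 of 34 passed with edgeR, and 1 member, Ldhb, had an unadjusted p below 0.05, against 5.23% of all genes (difference 0.44, SE 0.113, adjusted p = 0.668). The DKO comparisons and this test share their control libraries with the contrast along the axis, so their values are not independent of it.

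Eno1, the main enolase, has nearly identical copies in the genome, so its counts are given beside theirs. A transcript of Eno1b, annotated as protein coding, matched Eno1 at 99.5% identity, and 5 processed pseudogenes matched at 90.1% to 99.6%. In both libraries of control embryos 1 and 2 and DKO embryo 2, Eno1b held 43.7% to 49.3% of the counts of Eno1 plus Eno1b. In the other 12 libraries it held 21.1% to 23.9%. Both pieces of an embryo always fell on the same side.

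**Figure D4:**
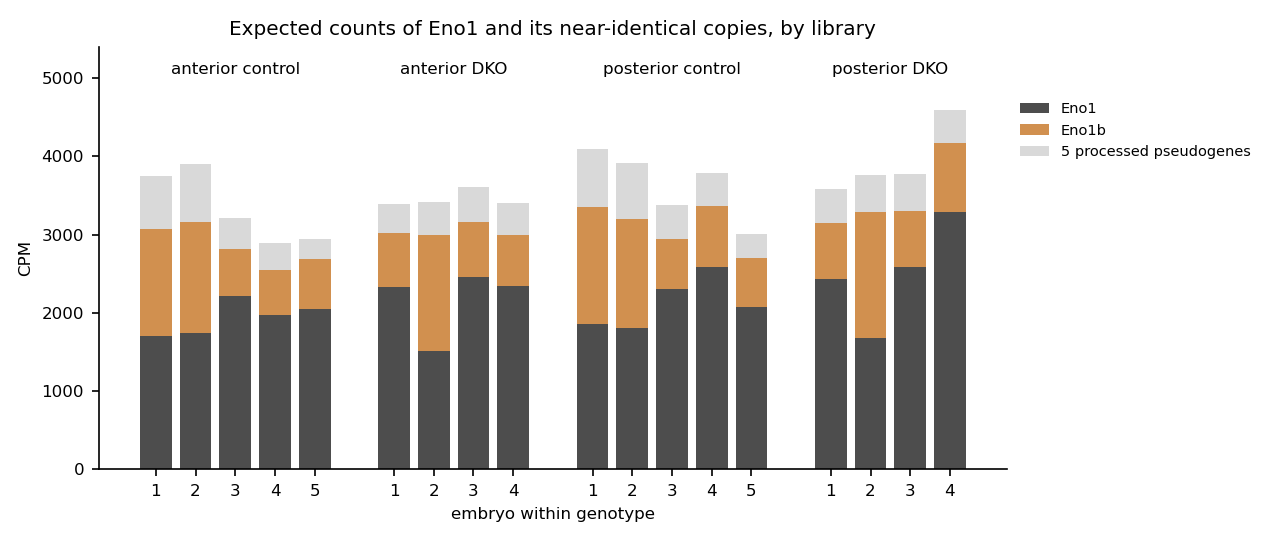
Stacked level in CPM of Eno1, Eno1b and 5 processed pseudogenes of Eno1 in each library, with embryos numbered within genotype. The Eno1 part is small where the copies are large (control embryos 1 and 2 and DKO embryo 2), while the full bars run from 2893 to 4596 CPM.

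Eno1 alone was at 1702, 1735, 2214, 1978 and 2051 CPM in anterior control and 1852, 1802, 2307, 2590 and 2069 CPM in posterior control libraries. The 2 lowest embryos in each group were those with the large share for Eno1b. In DKO embryos it was at 2335, 1517, 2464 and 2342 CPM anteriorly and 2438, 1678, 2586 and 3287 CPM posteriorly, with embryo 2 lowest in both pieces. With all copies added, the log2FC along the axis was 0.12 (adjusted p = 0.417) in controls and 0.19 (adjusted p = 0.102) in DKO embryos, against 0.13 and 0.21 for Eno1 alone. The SE in DKO embryos went from 0.198 to 0.0706 when the copies were added. For DKO against control, adding the copies moved Eno1 from 0.23 to 0.11 in the posterior and from 0.16 to 0.05 in the anterior piece, so these values depend on whether the copies are counted with Eno1. Whether the split between Eno1 and Eno1b comes from the assignment of reads or from the embryos' own sequence or expression was not tested. For the other members, copies found by sequence held at most 2.48% of the counts, including 184 copies of Gapdh with 1.40% to 2.25%.

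Other genes of glucose metabolism, from lists chosen with earlier results known, were also compared along the axis. In control embryos 5 of 23 further glycolysis genes were higher posteriorly and 3 were lower, against 12.1% and 13.3% of all genes. The widest change was in Hk3, a hexokinase, which fell from 6.22 ± 1.73 to 0.345 ± 0.156 CPM (log2FC -4.18, adjusted p = 7.49e-07). Mpc2, a subunit of the mitochondrial pyruvate carrier, fell by 0.48 (adjusted p = 0.00433), and Pdp2, a phosphatase that activates pyruvate dehydrogenase, rose by 0.41 (adjusted p = 0.0381). In DKO embryos 2 of 23 were higher and 1 lower, against 8.76% and 9.7% of all genes. These were Pgm1 (phosphoglucomutase, 0.48, adjusted p = 0.00330), Bsg (basigin, the chaperone of MCT1 and MCT4, 0.31, adjusted p = 0.0113) and Hk3 (-4.10, adjusted p = 0.00355). With edgeR, 0 of 8 pentose phosphate genes and 0 of 3 tested gluconeogenesis genes were called in either genotype. At an unadjusted p below 0.05 there were 2 and 1 of these in control embryos, against 35.5% of all genes, and 1 and 2 in DKO embryos, against 29.4%.

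Among 10 regulators known to act on glycolysis, 3 were higher and 1 was lower posteriorly in control embryos, against 12.1% and 13.3% of all genes. Lin28a, an RNA-binding protein that blocks let-7 maturation, went from 313 ± 48.9 to 521 ± 75.6 CPM (log2FC 0.74, adjusted p = 0.000402). Mycn went from 136 ± 11 to 186 ± 18.3 CPM (0.45, adjusted p = 0.000801) and Hif1a from 164 ± 8.92 to 189 ± 16.9 CPM (0.21, adjusted p = 0.0308). The lower one was Lin28b, a relative of Lin28a (-0.20, adjusted p = 0.0213), which was named after its value was seen. In DKO embryos 1 of 10, Lin28a, was higher (0.65, adjusted p = 0.0204) and 1, Lin28b, was lower (-0.26, adjusted p = 0.0279), against 8.76% and 9.7% of all genes. Of hypoxia targets outside the pathway, 1 of 14 was higher in control embryos, P4ha2, a collagen prolyl hydroxylase (0.51, adjusted p = 0.00422), against 12.1% of all genes. In DKO embryos 3 of 15 were higher, namely P4ha2 (0.74), Ddit4 (0.62) and Bhlhe40 (0.92), against 8.76% of all genes. Between genotypes, 0 of 58 tested genes of these 5 lists passed with edgeR in either piece, and 9 had an unadjusted p below 0.05 in each, against 11% of all genes posteriorly and 13% anteriorly. In the interaction 0 of 59 passed, and 2 had an unadjusted p below 0.05, against 3.45% of all genes.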

How the data were processed

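The authors deposited RSEM expected counts per Ensembl gene, not scaled between libraries, for poly(A) libraries (NEBNext, single reads of 61 bp, Illumina HiSeq, per the labels' protocols). CASAVA, cutadapt, RSEM and the build GRCm38 are named in the submitters' processing notes. The aligner, versions and use of strand in counting are not given in the sources used here, so overlapping genes on opposite strands are uncertain. GENCODE M21 gave symbols for 53360 of 53465 identifiers. Aldoa has 2 identifiers, and the one with 0.103% to 0.250% of its counts was left out.

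The tests used edgeR 4.0.16 in R 4.3.3 on the expected counts after rounding (filterByExpr with minimum count 10 and minimum total 15, TMM, glmQLFit, glmQLFTest). Adjusted p-values are Benjamini-Hochberg values over all genes tested in a comparison, with a threshold of 0.05. The SE is the log2 fold change divided by the square root of F, and 95% intervals are normal intervals from it. They are narrower than the test, so some exclude 0 where its unadjusted p is above 0.05. CPM used TMM factors over all 18 libraries. In the library with the lowest total, 12.7 megacounts, 3 counts are worth 0.233 CPM. The labels do not say whether embryos came from different litters.

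Genotype, sex label and somite number together identify each embryo, which pairs the pieces per the labels. The correlations of their deviations from the group means over genes were 0.312 to 0.658 in 9 pairs, against -0.377 to 0.101 between embryos of a genotype, so the embryo entered as a block in alternatives. The rest were RLE or upper quartile scaling, DESeq2 1.42.0, limma-voom (limma 3.58.1) with and without the embryo as a random effect, other filters, one fit of all libraries, sex label and somite number as covariates, single embryos left out, and copies added to their member. Copies found with BLAST 2.17.0 (at least 90% identity over 50% of the transcript) were added as an alternative after seeing the data. The code was tested on simulated data.

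The members, gene lists and tests were chosen with earlier results of these data known. Given with every library's value were members past the threshold along the axis in controls and the 12 with the widest change there. From each other list up to 3 called genes, averaging 50 counts or more, were named. Promoter windows are from RefSeq (GRCm38.p6).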

Additional observations from a re-analysis of the deposited data

Results flagged for a closer look

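Of 136 groups of 4 or 5 libraries, 1 per member and group, 7 had a library set apart from the rest by Dixon's ratio at the 95% level, and chance alone flags about 1 in 20. Aldoc stood at 12.8 CPM in posterior control 2, against 6.35 to 7.14 CPM in the other posterior controls. Gapdh was at 911 CPM in posterior DKO 4, against 658 to 670 CPM. In the same library Eno3 was at 75.2 CPM, against 51.0 to 54.4 CPM. Eno1 was at 1517 CPM in anterior DKO 2, against 2335 to 2464 CPM, and this is an embryo with a large share of counts on Eno1b. Eno2 was at 0.933 CPM in anterior control 3, against 0.460 to 0.581 CPM, and at 1.08 CPM in anterior DKO 2, against 0.404 to 0.484 CPM. Pdk1 was low in posterior control 4, at 92.3 CPM against 111 to 117 CPM.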

How the results depend on the processing

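No member that was called changed direction under any alternative. Along the axis of control embryos, the number of members called went from 10 to 18 with the replicate block for the embryo, to 15 with the embryo as a random effect in limma-voom and to 12 with DESeq2, and was 8 to 10 under the other settings that kept every embryo. The shares of all genes were 33.6%, 34.1%, 27.2% and 11.7% (no filter) to 26.1%. Leaving out 1 control embryo gave 7 to 9, against 19.0% to 22.2% of all genes. Along the axis of DKO embryos, the 9 calls became 4 of 33 without DKO embryo 1 (11.1% of all genes) and 4 of 33 without DKO embryo 4 (16.2% of all genes). The range was 4 to 8 over single embryos left out, against 11.1% to 16.2% of all genes. It was 8 to 10 under the other settings, against 9.40% (no filter) to 21.7% of all genes, with 9 under the replicate block (19.0%). For DKO against control in the posterior piece, DESeq2 called 1 member, Slc2a1, against 1.02% of all genes, and every other setting called 0. The anterior comparison and the interaction gave 0 under each setting run, with the replicate block run for the interaction only. Members with fold changes above 0 numbered 23 to 25 of those tested in controls and 25 to 28 in DKO embryos along the axis over all settings. In the interaction they numbered 16 without DKO embryo 4 and up to 27 otherwise. Loss of a call along the axis was most frequent for Ldha (7 of 16 alternatives) and Hk2 (6 of 16) in controls and for Pfkfb1 (7 of 15) in DKO embryos, and the cause was not tested. Members below about 1 CPM (Eno2, Pgam2 in posterior pieces, Pdk4) rest on few counts, and Pdk4 passed the filter on low counts in the anterior comparison and the interaction, but elsewhere only under some alternatives, such as no filter.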
